A study of Mus musculus with 2 samples.

Results

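The Slc25 family is the group of mitochondrial carriers, the membrane proteins that move metabolites, nucleotides, amino acids, cofactors and ions across the inner mitochondrial membrane. Its members were taken by symbol: every non-control probe whose gene name in the scanner files begins with Slc25a and a digit. That rule found 47 genes with 104 probes among 36995 gene names on the array. It uses no measured value. Of the 47 genes, 44 had at least 1 probe well above background on both arrays and were measured, among 22883 genes measured in all. The 2 samples were unfertilised oocytes of C57BL/6 mice. One pool of 213 oocytes carried wild-type Mul1 (MUL1 +/+) and the other, of 123 oocytes, lacked it (MUL1 -/-). Mul1 is an E3 ubiquitin ligase of the outer mitochondrial membrane. The labels do not say how the deletion was made or how old the mice were. The series title places the study in the context of reactive oxygen species in oocytes and early embryos that lack Mul1.

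Carriers of this family are built from repeats of a pair of membrane-spanning helices. Each repeat carries a signature in which a proline is followed by an acidic residue and then by basic residues. The carrier opens alternately to the intermembrane space and to the matrix, so that most members exchange one substrate for another. They are encoded in the nucleus, made in the cytosol and inserted into the inner membrane by a dedicated import route. In oocytes, mitochondria supply ATP through oxidative metabolism of pyruvate and fatty acids, and carriers for ADP and ATP, phosphate, malate, citrate and carnitine esters stand at the entry points of that metabolism.

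Each genotype was measured on 1 single-colour Agilent array, so there was no replicate and no test, and every difference below compares 2 arrays. A level is the log2 of the processed signal minus the array's 75th percentile, which corresponded to a signal of 808 in wild type and 790 in the knockout. A difference is the knockout level minus the wild-type level, averaged over those of a gene's probes that passed the scanner's background test on both arrays. Signals are given as geometric means over those probes and before this scaling. They compare the arrays for 1 gene and do not rank genes, since each probe has its own response. Among spots of the same probe, the log2 difference varied with a median SD of 0.045, a gauge of spot noise alone. It was taken over 296 probes printed at 5 or more spots. Spots on an array share its amplification, labelling and hybridisation, so this SD leaves out the spread of those steps. No member probe was saturated.

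Mul1 itself had 1 probe at a signal of 3353 in wild type and 1074 in the knockout, a difference of -1.61. Clear signal thus remained at this probe on the knockout array, where the 75th percentile was 790. The other Mul1 probe, of another transcript, was near background at 19.3 and 23.1. The labels call both samples oocytes, and 9 of 10 oocyte markers were measured, with 6 higher and 3 lower in the knockout, a median of 0.19 and Figla at background. Their summed signals of 80952 in wild type and 75742 in the knockout are mostly Gdf9 (68126 and 61515), while Ooep (0.94) and Nlrp5 (0.77) were more than 1.5-fold higher. Markers of cumulus and granulosa cells, the somatic cells that surround the oocyte, were measured for 12 of 12 genes, 8 higher and 4 lower in the knockout, with summed signals of 167362 and 179715. Of these, Has2 (1.16), Ptx3 (0.95) and Cyp19a1 (0.63) were more than 1.5-fold higher, and Star (-0.96) and Amh (-0.81) more than 1.5-fold lower. All 12 myeloid markers were higher on the knockout array, 10 of them at least 2-fold, with summed signals of 11587 and 36018. Of 8 red cell markers, 6 were measured and all 6 were lower on the knockout array, 5 of them at least 2-fold, with summed signals of 59881 and 19252. Theca and stroma markers, 7 of 7 measured, were higher in 6 and lower in 1, with sums of 5083 and 6082. Tagln (0.62) and Pdgfra (0.61) were more than 1.5-fold higher, and Dcn (-0.94) was more than 1.5-fold lower. Oviduct and endothelial markers, 7 of 7 measured, were higher in 5 and lower in 2, with a median of 0.11. Their sums of 78648 and 121184 differ mostly by Ovgp1 (24266 and 69105), and Kdr (1.13) and Epcam (1.09) were also more than 2-fold higher. Sums of signals are set mostly by the brightest probes, so they do not compare the amounts of different cell types. The part of these cells in the differences below was not tested. In such bulk samples, fewer cells of a type and less RNA per cell cannot be told apart.

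Probes of a pair of members encode the short signature pattern of the family. The following 60-base probes, read 5′ to 3′ from the scanner files, contain the carrier signature. Capitals mark the 24 bases that encode it in 1 reading frame.
Slc25a30 probe: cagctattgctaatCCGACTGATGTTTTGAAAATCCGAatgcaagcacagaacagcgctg
Slc25a43 probe: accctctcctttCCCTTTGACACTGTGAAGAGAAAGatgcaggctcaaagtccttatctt
The first covers chr14:76169441-76170009 on the minus strand and the other chrX:34297894-34315494 on the plus strand, both in mouse build mm9 per the file headers. Each probe is 60 bases long and spans far more of the genome, so each bridges at least 1 intron and lies in joined exons. The signature was found in 2 of 104 member probes (1.92%) and in 41 of 56605 probes on the array (0.0724%). Most matches thus lie outside the member probes, and a match alone does not identify a member. Most probes lie elsewhere in their transcripts, so absence of the signature from a probe says nothing about the protein. These probes differed between the arrays by -0.28 in Slc25a30 and by 0.23 in Slc25a43.

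As a family, the carriers differed little between the arrays. Their median difference was 0.07, beside 0.03 for all genes and 0.04 for the 15521 protein-coding genes measured. In the knockout sample 28 members (63.6%) were higher and 16 lower, while 54.8% of all genes and 56.5% of protein-coding genes were higher. With scaling on spike-in controls, which raises the median of all genes to 0.16, 36 members were higher and 8 lower. In all, 31 of 44 members (70.5%) lay within 0.25 of 0, as did 63.0% of protein-coding genes. Signals of the members on the 2 arrays had r = 0.992 across the 44 genes on the log2 scale, a description across genes that share the arrays and the probes.

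Only Slc25a35 was at least 2-fold higher, and only Slc25a2 was at least 2-fold lower. At a size of 1.5-fold the count was 1 higher and 2 lower, the addition being Slc25a25. Of all genes, 2.92% differed by 2-fold or more upward and 1.37% downward, and at 1.5-fold the shares were 7.82% and 5.2%. Among protein-coding genes the shares were 3.16% and 0.792% at 2-fold, and 7.92% and 3.26% at 1.5-fold. With 44 members, counts of 1 and 2 are near these shares and are no result about the family. All 3 genes were among the 21 members dimmer than the median gene, and none of the 23 brighter members was 1.5-fold apart.

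**Figure D1:**
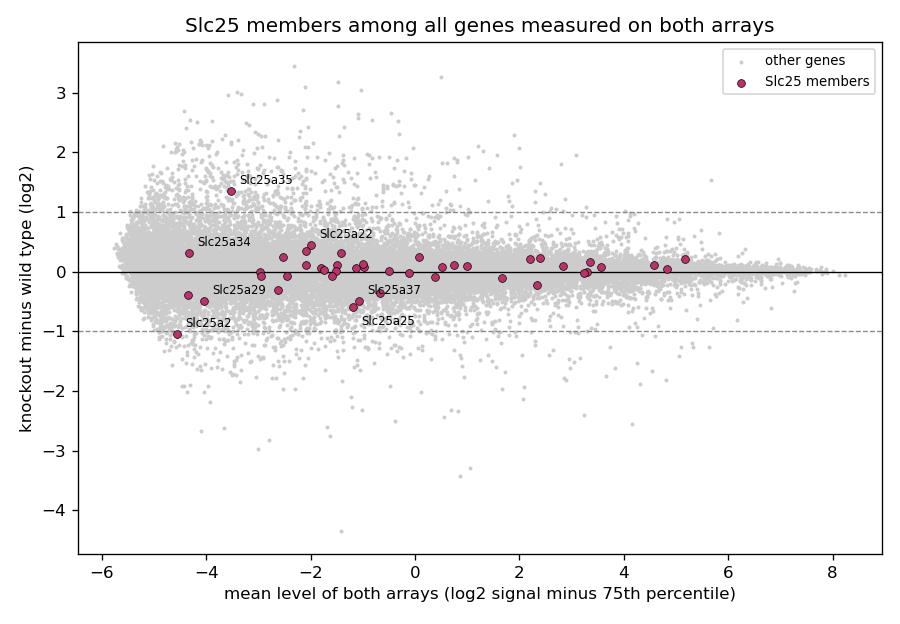
Difference between the arrays (knockout minus wild type, log2, vertical axis) against the mean level on both arrays (log2 signal minus the 75th percentile, horizontal axis), with each grey point 1 of the other genes measured and each coloured point 1 of the 44 Slc25 members. Dashed lines mark 2-fold. Slc25a35 at 1.35 and Slc25a2 at -1.04 lie outside the lines, both at low levels where other genes also scatter most.

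Carriers of adenine nucleotides and phosphate serve ATP synthesis. Slc25a4, an ADP/ATP carrier of muscle, heart and other tissues, had signals of 26995 in wild type and 30782 in the knockout, a difference of 0.22. Slc25a5, the ADP/ATP carrier of many dividing cells, gave 18572 and 19738, a difference of 0.12. The phosphate carrier Slc25a3 gave 22422 and 22764, a difference of 0.05, with its probes at -0.06 and 0.17. All 3 of these bright genes thus lay within 0.25 of 0. Slc25a31, an ADP/ATP carrier known from male germ cells, was dim at 107.1 and 99.8, a difference of -0.07 that turned to 0.07 with scaling on spike-in controls. A further probe that RefSeq assigns to Slc25a3, but whose name in the file is a transcript accession, lay outside the rule. It gave 507 and 312, a difference of -0.67, unlike the probes named Slc25a3.

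The ATP-Mg/phosphate carriers, most of which respond to calcium, set the adenine nucleotide content of the matrix, and their members lay on opposite sides of 0. Slc25a23 had signals of 169 and 210.3, a difference of 0.35. Its probes gave 0.06, 0.48 and 0.50, with signals from 131 to 195 on the wild-type array and from 181 to 259 on the knockout array. All 3 probes were higher on the knockout array, and the one nearest the 3′ end was close to 0. Slc25a24 gave 5562 and 5803, a difference of 0.09 on 1 probe. Slc25a25 was the lowest member of the group, at 434 in wild type and 282 in the knockout, a difference of -0.59 and just past 1.5-fold.

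The 4 probes of Slc25a25 were all lower on the knockout array. From the 3′ end onward their signals were 920 and 749, 654 and 503, 1095 and 562, and 53.7 and 29.7. The corresponding differences were -0.26, -0.35, -0.93 and -0.82, an SD of 0.33. They lie on chromosome 2 between 32270275 and 32273261 (mm9). Under 12 other processing settings Slc25a25 stayed below 0 and was past 1.5-fold in 7 of them, and its brightest probe on average over the arrays gave -0.26. Among protein-coding genes, 3.18% were as low or lower. The fourth gene of this group, Slc25a41, had 2 probes, neither well above background on either array.

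Among carriers of di- and tricarboxylates, aspartate and glutamate, which run the malate-aspartate shuttle and export citrate, 7 of 8 genes were measured and all 7 lay above 0, except that Slc25a18 was below 0, by less than 0.01, with quantile normalisation, with loess and in the authors' deposited table. The median was 0.16, and none reached 1.5-fold, so the shared sign rests on small differences. Of protein-coding genes, 56.5% were above 0. Slc25a22, a mitochondrial glutamate carrier, was the second highest member of the family, at 173 and 231, a difference of 0.45. Each of its 3 probes was higher on the knockout array: 53.2 against 76.1, 136.3 against 179.8, and 720.1 against 903. Their differences were 0.55, 0.43 and 0.36, and 11.5% of protein-coding genes were as high or higher. Its close relative Slc25a18, the other glutamate carrier, gave 104 and 102, a difference of 0.00.

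Slc25a12, the aspartate-glutamate carrier called aralar, was at 272 and 331, a difference of 0.32. Of its 5 probes on both arrays, 4 were higher, at 0.21, 0.32, 0.52 and 0.57, and the probe nearest the 3′ end was at -0.02. The brightest, at 4754 and 5360, gave 0.21. Slc25a13, called citrin and the second aspartate-glutamate carrier, gave 399.9 and 412, a difference of 0.08 with both probes at 0.08. In both pairs of relatives, then, one gene was higher by 0.3 or more and the other within 0.1 of 0.

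The remaining members of this group were the citrate carrier Slc25a1, the dicarboxylate carrier Slc25a10 and the oxoglutarate-malate carrier Slc25a11. Slc25a1 was at 3948 and 4525, a difference of 0.23 with probes at 0.22 and 0.24. Slc25a10 was at 275 and 293, a difference of 0.12 on 1 probe. Slc25a11 was at 7776 and 8483, a difference of 0.16 with probes at 0.09 and 0.23. All of these were smaller than 1.5-fold, and that of Slc25a10 was within its scanner error of 0.21. Slc25a21, a carrier of oxodicarboxylates, had 4 probes and none well above background, with signals from 2.76 to 6.52.

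**Figure D2:**
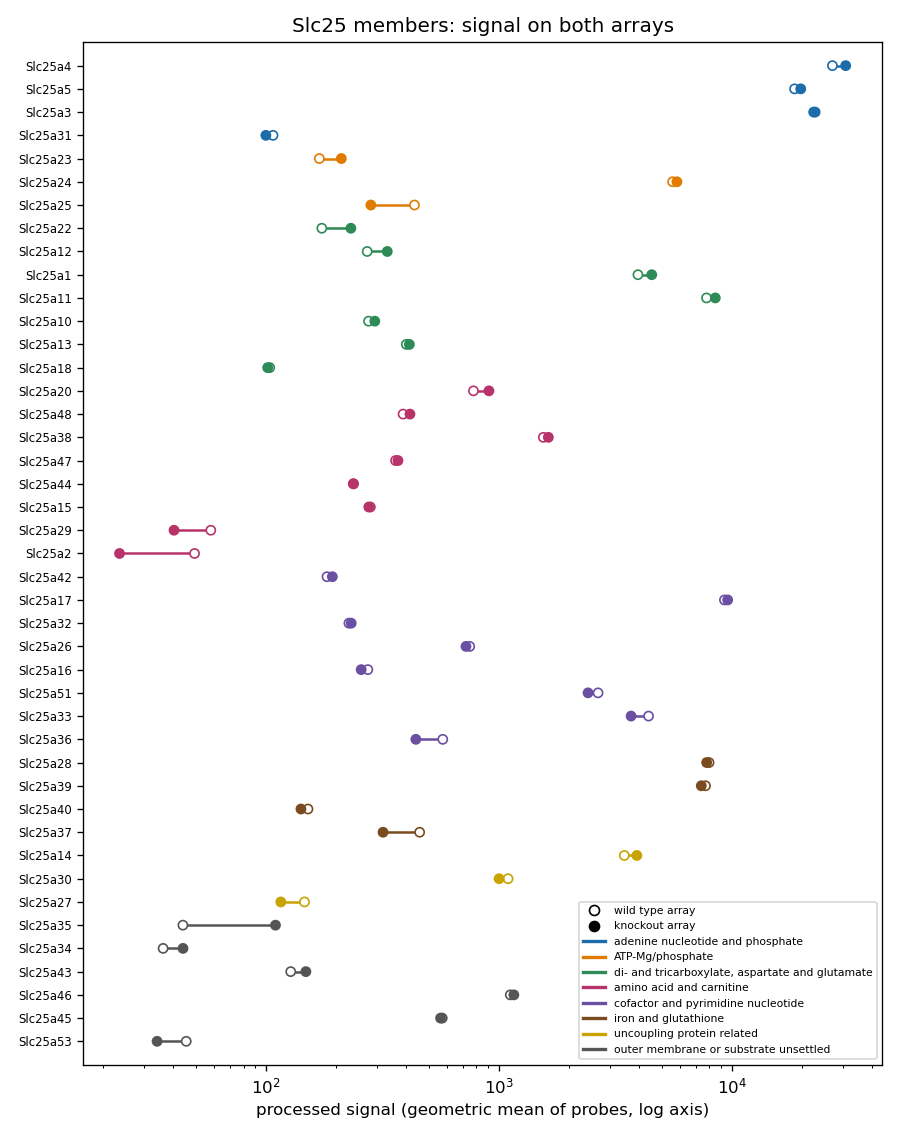
Processed signal (geometric mean over probes, log axis) of each Slc25 member shown on the wild-type array (open circles) and the knockout array (filled circles), joined by a line and coloured by transport role, with 1 array per genotype. Most pairs nearly coincide, Slc25a35 (43.9 and 109.7) and Slc25a2 (49.3 and 23.5) are widest apart, and signals of different genes are not comparable.

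Carriers of amino acids and carnitine held the lowest member of the family. Slc25a2, an ornithine carrier, had 1 probe, at 49.3 in wild type and 23.5 in the knockout, a difference of -1.04. On the knockout array this is 1.48 times the lowest signal that counted as well above background, and the scanner software's own errors give the difference an error of 0.31. It was -0.33 with normexp background correction, and with the stricter filter on dim probes it was not measured. Slc25a15, the major ornithine carrier of the urea cycle, was at 280.2 and 276, a difference of 0.01.

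Slc25a29, a carrier of basic amino acids, also had a single dim probe, at 57.9 and 40.2, a difference of -0.49, which was -0.19 with normexp correction. Slc25a20 exchanges carnitine and acylcarnitines and so brings fatty acids to the matrix. It was at 776 and 905, a difference of 0.25 on 1 probe. Slc25a38, which carries glycine for haem synthesis, was at 1549 and 1628, a difference of 0.10. The branched-chain amino acid carrier Slc25a44 was at 237 on both arrays, a difference of 0.04 from probes at -0.20 and 0.27. Slc25a47, best known from liver, gave 359.5 and 368, a difference of 0.07, and Slc25a48, a relative of the carnitine carrier, gave 387 and 415, a difference of 0.13. Apart from Slc25a2 and Slc25a29, every member of this group was above 0, and none of those reached 1.5-fold.

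Carriers of cofactors and pyrimidine nucleotides bring coenzyme A, S-adenosylmethionine, folate, NAD and the precursors of mitochondrial nucleic acids across membranes. Of 9 measured genes 4 were above and 5 below 0, with a median of -0.02. The pyrimidine nucleotide carriers were both lower on the knockout array: Slc25a33 was at 4385 and 3689, a difference of -0.22 on 1 probe, and Slc25a36 was at 573 and 439, a difference of -0.35. Both kept this sign in all 12 other settings. Neither passed 1.5-fold, except Slc25a36 at -0.61 when only probes designed on RefSeq transcripts were used.

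The probes of Slc25a36 differed in order along the gene. From the 3′ end of the gene to the 5′ end, their signals were 148 and 137, then 2697 and 2453, then 699.6 and 547, then 386 and 203, and last 33.3 and 12.4. The corresponding differences were -0.08, -0.10, -0.32, -0.90 and, for the last, which only the wild-type array detected, at least 2.06-fold lower in the knockout. They span chr9 from 96975371 to 96993351 (mm9). Each step toward the 5′ end was lower than the one before, so the mean over probes hides a range from near 0 to about 2-fold. Over the family only the end probes were compared, which cannot show whether a stepwise order holds. Of 30 members with several probes, 15 had the 5′-most probe lower than the 3′-most (50%), beside 47.1% of 7490 protein-coding genes. Besides Slc25a36, the 5′-most probe was lower by more than 0.5 in Slc25a25 and Slc25a34 and higher by more than 0.5 in Slc25a12. Of the 7490 protein-coding genes, 775 were lower and 565 higher by more than 0.5. Counts of 3 and 1 among 30 members are thus no result about the family. These probes were designed on transcripts of different sources, and whether they detect the same transcripts was not tested.

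Other cofactor carriers were near 0. Slc25a42, a coenzyme A carrier, was at 183 and 192, a difference of 0.11, and another probe, detected on the knockout array alone, was at least 1.60-fold higher there. With dim probes kept, Slc25a42 was at 0.60. Slc25a17, a peroxisomal carrier of coenzyme A and related cofactors, was at 9283 and 9584, a difference of 0.08. The folate carrier Slc25a32 was at 227 and 232, a difference of 0.07, and turned to -0.04 with its brightest probe alone or with the stricter filter. Slc25a26, which carries S-adenosylmethionine, was at 748 and 721, a difference of -0.02 that was above 0 in 3 of the 12 other settings. Slc25a16, linked to coenzyme A, was at 273 and 256, a difference of -0.06 from probes at -0.20 and 0.07, and was 0.07 on the spike-in scale. The NAD carrier Slc25a51 was at 2661 and 2411, a difference of -0.11 with probes at -0.14 and -0.08, and was 0.03 on the spike-in scale. All of these were within 0.25 of 0 on probes well above background on both arrays.

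The lower values of Slc25a25 and Slc25a36 led to a look at promoter sequence, chosen after the values were seen. Slc25a25 is known as a gene that responds to cyclic AMP and related signals in several tissues, and the element bound by CREB in such promoters is TGACGTCA, which reads the same on both strands. RefSeq promoters (build GRCm38.p6, from 250 bases before to 50 after each gene start) matched 36 of the 47 members. The 8-letter element was present in 2 of the 36 (5.56%), Slc25a25 and Slc25a36, and in 2.03% of 27025 genes with a promoter. These are the genes that prompted the search, so the count is no result about the family. The 250 bases before the start are printed for both, 5′ to 3′ on the gene's strand, with the element in capitals.
Slc25a25 promoter: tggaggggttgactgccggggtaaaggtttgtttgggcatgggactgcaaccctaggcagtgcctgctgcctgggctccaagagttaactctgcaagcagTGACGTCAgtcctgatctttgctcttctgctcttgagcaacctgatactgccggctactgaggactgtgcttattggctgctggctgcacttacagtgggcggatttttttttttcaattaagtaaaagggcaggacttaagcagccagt
Slc25a36 promoter: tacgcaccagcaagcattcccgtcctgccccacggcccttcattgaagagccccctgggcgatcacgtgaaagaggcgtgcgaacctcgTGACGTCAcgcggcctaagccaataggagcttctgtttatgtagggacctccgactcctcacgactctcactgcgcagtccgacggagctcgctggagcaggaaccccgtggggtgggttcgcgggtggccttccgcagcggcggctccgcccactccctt
They lie at chr2:32424067-32424316 and chr9:97111042-97111291 of GRCm38.p6, both on the minus strand. The element begins 150 bases before the start in Slc25a25, in 1 of its 3 promoters, and 161 bases before it in Slc25a36. Its first 5 letters, TGACG, which overlap every full element, were in promoters of 12 of 36 members (33.3%) on either strand and of 23.0% of all genes. Of those 12, 5 were above 0 and 7 below, and of the 7, Slc25a16, Slc25a28 and Slc25a40 were above 0 on the spike-in scale. The 7 include Slc25a25 and Slc25a36 themselves, and of all 44 measured members 28 were above 0 and 16 below. A match of letters is a description and does not show that a factor binds there. Any part of cyclic AMP signals in these differences was not tested.

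Iron and glutathione carriers supply iron to the matrix for haem and iron-sulfur clusters and keep its glutathione pool, part of the defence against oxidants. All 4 were below 0, as were 6757 of 15521 protein-coding genes. Of the 4, Slc25a28, Slc25a39 and Slc25a40 lay within 0.1 of 0 and turned above 0 on the spike-in scale. Slc25a37, called mitoferrin 1 and the iron importer of developing red cells, was at 456 in wild type and 318 in the knockout, a difference of -0.49. Each of its 3 probes measured on both arrays was lower: 5570.3 against 4071, 141 against 81.4, and 121 against 96.8. The differences were -0.42, -0.76 and -0.29. It stayed below 0 in all 12 other settings, from -0.50 to -0.29, and 4.91% of protein-coding genes were as low or lower.

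Red cell markers were lower in the knockout sample as well. Hba-a1, a globin, was at 20004 and 6382, a difference of -1.62, Hba-a2 at -1.66, Hbb-bt at -1.39, and Hbb-b1 at -1.23. Alas2, the haem synthesis enzyme of red cells, was at 241 and 116, a difference of -1.03, while Slc4a1 was dim at 29.2 and 26.8, a difference of -0.10. Their part in the lower Slc25a37 was not tested. Alas1, the haem synthesis enzyme of other cells, was at 0.25, and the glycine carrier Slc25a38, also used for haem, was at 0.10. Mitoferrin 2 (Slc25a28) was at 7974 and 7787, a difference within 0.01 of 0. The glutathione carrier Slc25a39 was at 7699 and 7384, a difference of -0.03 with probes at -0.04 and -0.02. Its relative Slc25a40 was at 151 and 141, a difference of -0.07, with another probe at least 1.60-fold lower on the knockout array, where it was not well above background. With dim probes kept, Slc25a40 was at -0.22.

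Relatives of the uncoupling proteins, which dissipate the proton gradient or carry small anions, gave 1 value above 0 and 2 below. Slc25a14 was at 3449.9 and 3906, a difference of 0.21 on 1 probe. Slc25a30 was at 1093 and 1001, a difference of -0.10 that was 0.04 on the spike-in scale. Of its 4 probes 3 were lower, at -0.28, -0.24 and -0.20, including the signature probe printed above, and a dim one at 43.5 and 54.1 was higher, at 0.35. Slc25a27, known from brain, was at 146 and 116, a difference of -0.31 with probes at -0.39 and -0.22. Its other probe, which crosses a splice junction, was at least 1.49-fold lower on the knockout array. All of its probes thus ran one way, at a size below 1.5-fold on those measured on both arrays.

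The last group holds members of the outer membrane or without a settled substrate, and with them the highest member of the family. Slc25a35, an orphan carrier, was at 43.9 in wild type and 109.7 in the knockout, a difference of 1.35, and 1.71% of protein-coding genes were as high or higher. Its probes, whose first 30 bases are printed to show that they are separate stretches of the gene, are the following, with no base singled out.
Slc25a35 probe at chr11:68785020: tatcactgtgttatctctgatggtatggaa
Slc25a35 probe at chr11:68785799: cacaaatcccccgatatatttcatacccat
Slc25a35 probe at chr11:68787730: aagattcagacctcaagccttgatacctaa
These lie on the plus strand of mm9. The first, designed on a cDNA, was well above background on the knockout array alone, at 14.1 and 22.9, and was at least 1.66-fold higher there. The second, designed on the RefSeq transcript, was at 23.7 and 57.2, a difference of 1.30. The third, designed on an Ensembl transcript, was at 81.4 and 210.2, a difference of 1.40. All 3 were higher on the knockout array, and the difference was the same within 0.1 on the pair measured on both. It was past 1.5-fold in all 12 other settings and past 2-fold in 11, with 0.75 under normexp background correction.

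Slc25a34, the closest named relative of Slc25a35, gave probes that disagreed. Their first 30 bases, on the minus strand of mm9, show the separate stretches.
Slc25a34 probe at chr4:141174747: cccaagtgagaaaaattactccagatgaac
Slc25a34 probe at chr4:141179390: caggccccaggcacctacccacggccctac
The first, nearer the 3′ end, was at 42.0 in wild type and 92.8 in the knockout, a difference of 1.18. The other was at 31.1 and 20.8, a difference of -0.54, and at 1.32 times the lowest signal well above background on the knockout array. The mean of 0.32 thus describes neither probe, and Slc25a34 is reported with no direction. It was the only member whose probes ranged over more than 1.

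Among the other members of the group, Slc25a43 was at 128 and 148, a difference of 0.25, with the signature probe at 0.23 and the other at 0.27. Slc25a46, an outer membrane protein tied to mitochondrial shape and to lipid handling, was at 1117 and 1158, a difference of 0.08 with probes at 0.03 and 0.14. Slc25a45 was at 570.4 and 561, a difference of 0.01. Slc25a53 was dim, at 45.4 and 34.0, a difference of -0.38. Its 3 probes were all lower on the knockout array, at 38.8 and 30.6, 30.8 and 28.4, and 78.2 and 45.3, with differences of -0.31, -0.09 and -0.75. Slc25a54 had 1 probe, which was not well above background.

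**Figure D3:**
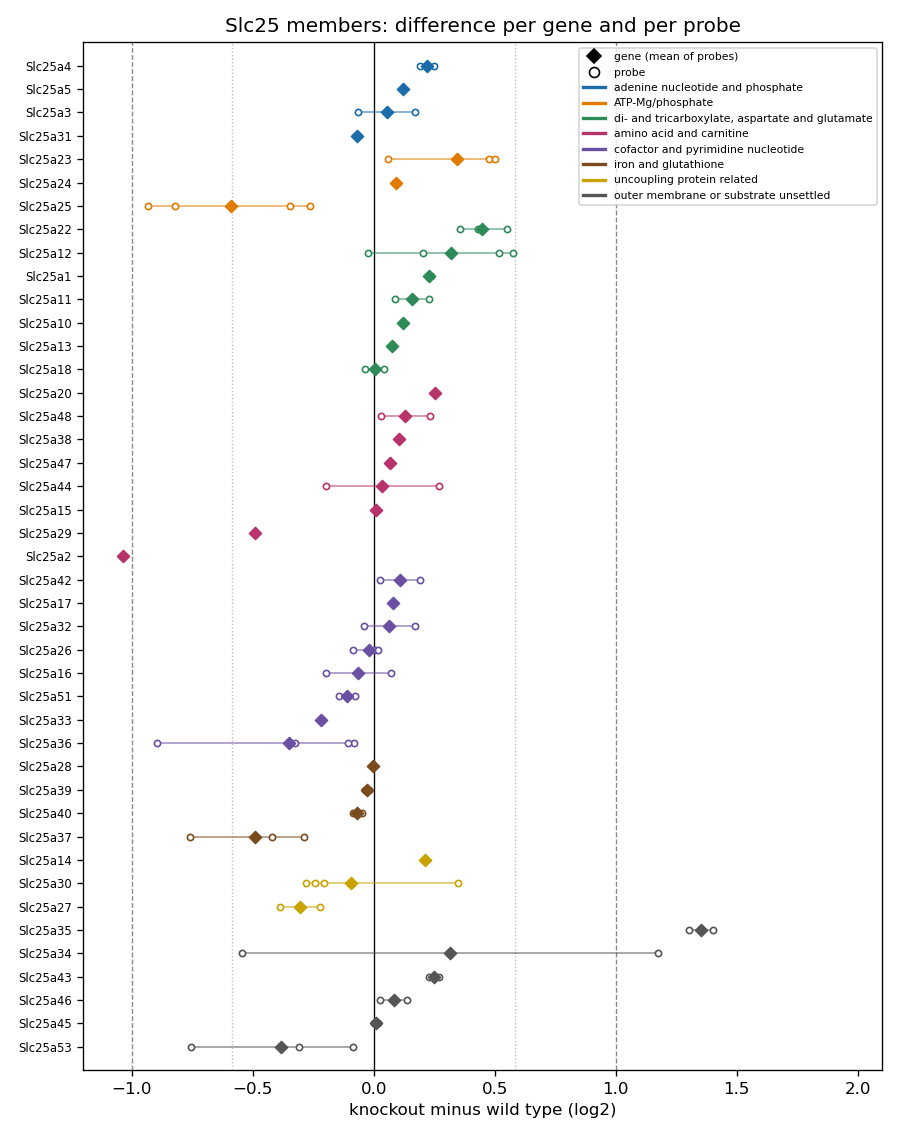
Difference between the arrays (knockout minus wild type, log2) of each Slc25 member shown, as the mean of its probes (diamonds) and as single probes measured on both arrays (open circles, joined by a line), coloured by transport role, with dashed lines at 2-fold and dotted lines at 1.5-fold. Slc25a35 stands at 1.35 with its probes together, Slc25a34 spreads from -0.54 to 1.18, and most members lie near 0.

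The spread between probes describes how far probes of a gene differed on these 2 arrays, not how far a repeat would differ. Probes fell to 1 side of 0 in 21 of the 30 members that had several, and to both sides in 9. The median SD between probes of a gene was 0.11, and 6 members had probes more than 0.5 apart. The scanner software's signal errors, carried to the difference as if probes of a gene were independent, had a median of 0.15. They hold no spread of amplification or of animals. By this measure 19 of 44 members were further from 0 than their own error, 9 of them by more than 2 errors. The same count over other genes was not made, so these counts are no result about the family. Dim probes differed more: the median size of the difference was 0.35 over 19 probes with a mean signal under 100, 0.23 over the 39 of middle brightness and 0.13 over the 30 brightest. None of the 30 brightest probes was 1.5-fold apart. In the family, then, larger differences were found where the signal was low.

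Carriers of the same fold under other symbols were few. Of 7 listed names, 5 were found on the array under those names and 4 were measured, with a median of 0.08. Mcart1 and Mcart6 were not found under those names, which does not show that the genes lack probes. Ucp2, an uncoupling protein, was at 2837 and 3185, a difference of 0.20, and Mtch1, an outer membrane relative, was at 0.10. Mtch2, an outer membrane protein insertase, was at 922 and 685, a difference of -0.40 from probes between -0.98 and 0.18, and Ucp3 was at 0.06. Ucp1, the uncoupling protein of brown fat, was not well above background. None was 1.5-fold apart.

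The route that inserts carriers into the inner membrane was measured for 10 of 10 listed genes, 6 above and 4 below 0, with a median of 0.06. Timm22, the channel of the carrier translocase, was at 3939.5 and 4630.3, a difference of 0.27, and Timm13, a chaperone of the intermembrane space, was at 0.18. Agk, a lipid kinase that is also a subunit of that translocase, was at 197 and 149.5, a difference of -0.36 from probes at -0.90 and 0.17, and Timm29, another subunit, was at -0.25. Subunits of the same translocase thus lay on both sides of 0, none of them 1.5-fold apart.

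Other transporters of the inner membrane were measured for 18 of 18 genes, 10 above and 8 below 0, with a median of 0.06. Mcub, a regulator of the calcium uniporter, was among the highest, at 0.22. Mpc2, a subunit of the pyruvate carrier, was at 894 and 697, a difference of -0.33 with both probes lower, and Sfxn5, a sideroflexin, was at -0.25. The 15 enzymes of the malate-aspartate, glycerol phosphate, carnitine and citrate shuttles had a median of 0.08, with 10 above 0. Gpd1l, a relative of glycerol phosphate dehydrogenase, was highest at 0.56, from probes between -0.08 and 1.78, and Cpt2, which acts beside Slc25a20 on carnitine esters, was at 1879 and 2411, a difference of 0.39. Mdh1, the cytosolic malate dehydrogenase, was at -0.36 from probes between -1.07 and 0.04, and Acly, which cleaves citrate in the cytosol, was at -0.14.

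The 20 enzymes that make or use cofactors, iron and folate had a median of -0.03, with 8 above and 12 below 0. Alas1, named above for haem synthesis, was at 0.25. Nmnat3, an enzyme of NAD synthesis placed in mitochondria, was at 263 and 192, a difference of -0.42 with its 3 probes between -0.52 and -0.31, and Nmnat1, its nuclear relative, was at -0.14. None of these 5 lists held a gene that was 1.5-fold apart, beside the shares of protein-coding genes given above.

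**Figure D4:**
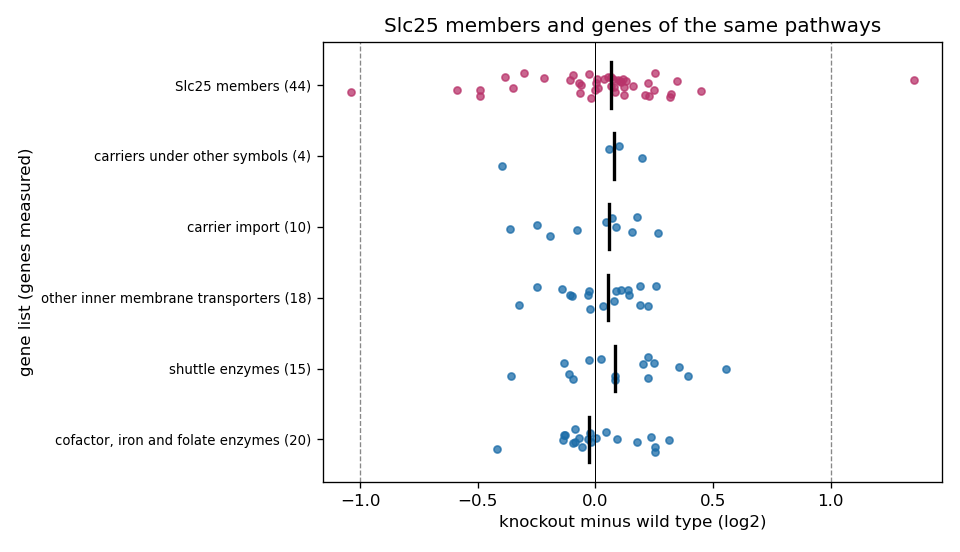
Difference between the arrays (knockout minus wild type, log2) of single genes, 1 point per gene, for the Slc25 members and 5 lists of genes of the same pathways, with the number measured in brackets, black bars at the medians and dashed lines at 2-fold. Medians lie between -0.03 and 0.08, and only Slc25 members reach the 2-fold lines.

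Across 12 other processing settings, 32 of 44 members kept the sign of their difference, 24 higher and 8 lower, in every setting in which they were measured, and the other 12 crossed 0 in at least 1. The 8 that stayed lower were Slc25a2, Slc25a25, Slc25a27, Slc25a29, Slc25a33, Slc25a36, Slc25a37 and Slc25a53. Those that stayed higher include Slc25a35, Slc25a22, Slc25a23, Slc25a12, Slc25a20, Slc25a1 and Slc25a4. Scaling on spike-in controls moves all values upward, and in that setting 8 members changed sign, all from below to above 0. The split of 24 and 8 thus depends in part on that setting, and the same count over all genes was not made. A kept sign describes these 2 arrays and not a repeat of the experiment.

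**Figure D5:**
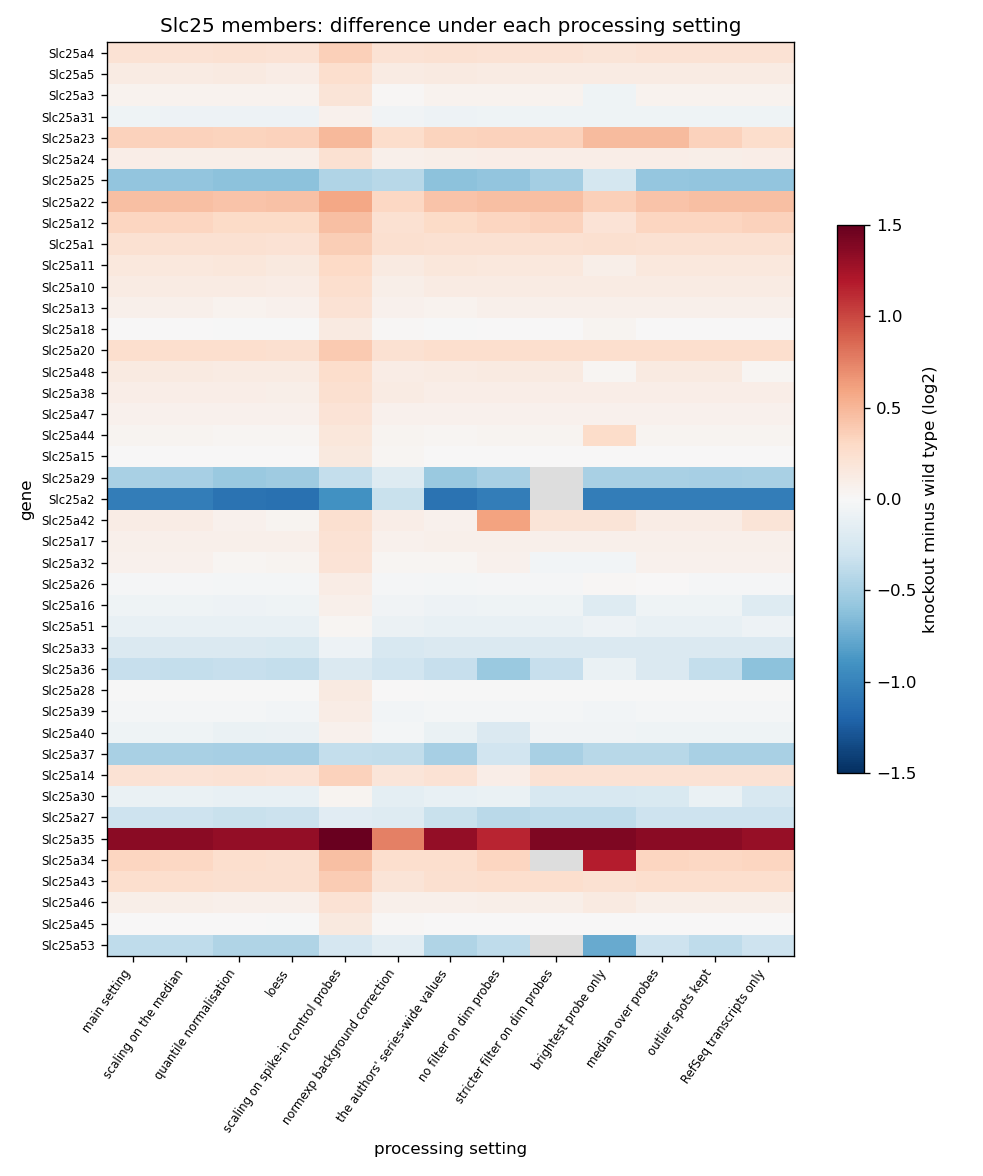
Difference between the arrays (colour, knockout minus wild type, log2) of each Slc25 member shown (rows, by transport role) under each processing setting (columns), with grey where a gene was not measured. Slc25a35 is red in every column and Slc25a2 and Slc25a25 are blue, while scaling on spike-in controls turns many values near 0 to above 0.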

How the data were processed

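The 2 deposited scanner files give linear spot intensity and were written, per the file headers, by Agilent Feature Extraction 10.7.1.1 (array design 074809, probe positions on mm9). Version 9.5.1.1 stands in the submitters' processing notes. Per the labels, RNA was amplified and labelled with Cy3 with a low-input kit. The deposited series-wide table of intensity (56605 probes) had the same sorted values in both columns within 0.484%, so the authors' values were taken as quantile normalised, with a median of 57.9 in both. They followed the scanner log2 values with r = 0.99997 on each array, and their differences with r = 0.997, so scale and direction are known.

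Control spots and outlier spots (88 and 84) were left out, replicate spots averaged and each array's 75th percentile of log2 intensity subtracted. Of 56600 probes, 66.0% in wild type and 64.5% in the knockout were well above background. The lowest such signals were 12.9 and 15.8. For a probe well above background on 1 array, the bound sets its signal there against the higher of that lowest signal and its own on the other array, after scaling. Genes outside the family were named through a RefSeq table (GRCm38.p6), by accession for 33903 probes, symbol for 9458 and synonym for 488, and 12756 kept the file's name. Exon and UTR annotation of the probes was not used here.

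With 1 array per genotype no test was possible, and genes were counted by size. Members are given by role, and the values of a few genes of the family and of the other lists are not reported here. Given in full are the 6 highest and 6 lowest, those at least 1.5-fold apart and those with probes on both sides of 0 over a range above 1. Other lists give genes from their 2 highest and 2 lowest, and a gene named beyond that was chosen after its values were seen. The members, lists, motifs and rules were chosen with earlier results of these data known. The analysis used Python 3.11.15, pandas 2.3.3, numpy 2.4.6, statsmodels 0.14.6, R 4.3.3 and limma 3.58.1, and the counting was tested on simulated data.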

Additional observations from a re-analysis of the deposited data

How the results depend on the processing

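Arrays were also scaled on the detected median or on 7 spike-in probes, by quantiles or by loess (span 0.3). Other alternatives were normexp (offset 50), the authors' values, dim probes kept or held to 4 times the lowest detected signal (the stricter filter), the brightest or the median probe, outlier spots kept, and RefSeq probes only, the last chosen after seeing the data. Members at least 2-fold apart numbered 2, and 1 with spike-in scaling, 0 with normexp and 1 with the stricter filter. At 1.5-fold they numbered 3, and 1 with normexp and 1 with the stricter filter, under which Slc25a2, Slc25a29, Slc25a34 and Slc25a53 were not measured. The median was 0.07, and 0.20 with spike-in scaling, which moves all genes (median 0.16). Elsewhere the counts stayed within 1.5 times, and the median lay between 0.04 and 0.08. No member at least 1.5-fold apart changed sign. No paired analysis was possible because each genotype has 1 array. Neither the spread between animals nor that of amplification could be measured, and members near the lowest detected signal have imprecise differences.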
